A study of Mus musculus with 6 samples.

Results

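The immunoglobulin heavy variable genes (Ighv genes) of the mouse were taken from a gene expression table of pancreatic islets as all rows with the biotype IG_V_gene and a name that starts with Ighv. This gave 113 members among 54556 gene rows. Pseudogenes of the same cluster carry another biotype and are not members. The donors of the islets were C57BL/6 mice, 8 weeks old and kept on normal chow. The 3 KO-labelled libraries are from mice with floxed Mettl3 alleles and a Cre recombinase under the rat insulin promoter (RIP-Cre), a driver aimed at the insulin-producing β cells. The 3 flox/flox libraries are from mice with the same floxed Mettl3 alleles and no Cre. All 6 libraries therefore carry the floxed alleles, and a library with RIP-Cre alone is not among them. The labels do not say which animals gave which library or whether islets of several animals were pooled, so each p-value below measures only the spread between libraries.

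The variable segments of the heavy chain encode most of the part of an antibody that meets antigen. In a developing B cell the RAG recombinase joins 1 Ighv segment to a diversity and a joining segment, and the joined exon is then spliced to a constant region such as Ighm (the heavy chain of IgM) or Igha (that of IgA). Each B-cell clone, and each plasma cell that descends from it, therefore transcribes mainly its own rearranged Ighv segment, and RNA of many such segments takes many clones. Islet endocrine cells are not known to rearrange these genes.

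The members lie on chromosome 12 of GRCm38 between positions 113578504 and 116000461, a span of 2.42 Mb, and all are on the minus strand. Ighm lies at the lower-coordinate side of this span, at 113418558 to 113422730. The genes are close copies of each other, which bears on how reads were assigned to them. The segments below are shown because they carried the main patterns of usage. Ighv1-26 led in every KO-labelled library. Ighv1-18 and Ighv1-22 are near copies of it. Ighv1-81 and Ighv1-15 were among the few members with reads in flox/flox libraries. Ighv5-17 was the most used member of another family. Each run of 294 bases is the variable segment on the coding strand, 5′ to 3′, with RefSeq coordinates on GRCm38.p6 and letters from the GENCODE M21 transcript. Capitals mark positions whose letter differs from Ighv1-26 at the same position, with no gaps allowed. The positions are chr12:114788372-114788665 for Ighv1-26, chr12:114682632-114682925 for Ighv1-18, chr12:114746273-114746566 for Ighv1-22, chr12:115920279-115920572 for Ighv1-81, chr12:114657353-114657646 for Ighv1-15 and chr12:113859149-113859442 for Ighv5-17.
Ighv1-26: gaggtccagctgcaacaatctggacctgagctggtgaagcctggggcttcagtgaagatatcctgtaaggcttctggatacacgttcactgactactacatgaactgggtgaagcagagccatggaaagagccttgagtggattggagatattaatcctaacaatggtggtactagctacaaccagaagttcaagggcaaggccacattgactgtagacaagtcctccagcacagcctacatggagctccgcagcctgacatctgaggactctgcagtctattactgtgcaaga
Ighv1-18: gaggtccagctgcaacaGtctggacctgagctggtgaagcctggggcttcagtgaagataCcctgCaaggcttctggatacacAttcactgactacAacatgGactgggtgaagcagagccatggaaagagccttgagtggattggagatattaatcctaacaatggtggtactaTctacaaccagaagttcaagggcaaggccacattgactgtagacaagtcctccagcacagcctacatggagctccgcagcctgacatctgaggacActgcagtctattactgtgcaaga
Ighv1-22: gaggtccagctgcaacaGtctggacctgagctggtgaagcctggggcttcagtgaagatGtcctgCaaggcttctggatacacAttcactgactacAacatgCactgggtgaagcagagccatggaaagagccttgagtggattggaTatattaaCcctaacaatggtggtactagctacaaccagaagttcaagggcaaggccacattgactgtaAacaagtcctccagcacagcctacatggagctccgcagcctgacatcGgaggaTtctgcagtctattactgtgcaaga
Ighv1-81: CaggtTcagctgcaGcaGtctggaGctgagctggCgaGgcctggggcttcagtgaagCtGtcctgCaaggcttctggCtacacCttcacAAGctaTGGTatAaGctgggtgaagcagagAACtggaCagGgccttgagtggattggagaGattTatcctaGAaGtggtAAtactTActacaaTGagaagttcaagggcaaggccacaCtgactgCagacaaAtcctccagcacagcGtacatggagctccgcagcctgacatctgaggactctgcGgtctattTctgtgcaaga
Ighv1-15: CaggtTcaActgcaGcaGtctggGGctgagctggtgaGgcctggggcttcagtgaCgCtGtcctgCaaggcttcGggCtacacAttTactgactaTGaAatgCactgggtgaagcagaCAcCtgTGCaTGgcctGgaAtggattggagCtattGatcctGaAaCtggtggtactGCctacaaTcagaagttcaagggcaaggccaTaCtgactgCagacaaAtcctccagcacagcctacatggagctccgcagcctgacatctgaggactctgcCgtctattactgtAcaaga
Ighv5-17: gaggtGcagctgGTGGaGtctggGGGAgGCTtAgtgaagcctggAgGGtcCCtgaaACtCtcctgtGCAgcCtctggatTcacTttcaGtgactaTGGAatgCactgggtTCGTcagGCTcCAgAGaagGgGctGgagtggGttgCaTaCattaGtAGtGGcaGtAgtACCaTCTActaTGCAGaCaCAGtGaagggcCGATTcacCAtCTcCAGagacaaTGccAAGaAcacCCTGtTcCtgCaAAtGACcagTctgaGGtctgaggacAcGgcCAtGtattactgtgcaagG
Ighv1-18 differed from Ighv1-26 at 8 positions and Ighv1-22 at 11. The differences were 43 for Ighv1-81, 44 for Ighv1-15 and 115 for Ighv5-17.

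The deposited values are FPKM (fragments per kilobase of gene, scaled for sequencing depth), and whole reads per gene were recovered from them. The libraries held 16719393 to 18387313 reads in the KO-labelled group and 16398862 to 17691055 in the flox/flox group. The gene targeted by the Cre, Mettl3 (the catalytic subunit of the m6A RNA methyltransferase), had 4.14 ± 0.07 FPKM in KO-labelled libraries and 3.41 ± 0.52 FPKM in flox/flox libraries (SD, n = 3 each). On the log2 scale this is a difference of 0.25 ± 0.11 (SE), with an adjusted p of 0.12 in limma. Whole-gene Mettl3 was not lower under the knockout label and does not check the genotype. The islet identity of the tissue was plain in both groups. The 12 genes of an islet endocrine list (Ins1, Ins2, Iapp and others) summed to between 189087 and 210412 CPM (counts scaled to each library's total reads) in KO-labelled libraries, against 294875 to 358297 CPM in flox/flox libraries.

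Ighv reads were a small share of each library and were far more numerous in the KO-labelled libraries. The 113 members together held 2020, 3012 and 2532 reads in KO-labelled libraries 1, 2 and 3, against 52, 34 and 38 reads in flox/flox libraries 1, 2 and 3. As a share of all reads this was 0.0110%, 0.0180% and 0.0143% in the KO-labelled libraries, against 0.000294%, 0.000207% and 0.000226% in the flox/flox libraries. The groups did not overlap. The mean share was 0.0144% ± 0.0035 in KO-labelled and 0.000243% ± 0.000045 in flox/flox libraries (SD, n = 3 each), a ratio of 59.5 (exact two-sided permutation p = 0.10, the smallest p that 3 against 3 libraries can give). The lowest KO-labelled share had an exact 95% binomial interval of 0.0105% to 0.0115%. Such intervals cover counting error only. On the deposited FPKM scale the members summed to 264.9, 421 and 333 in KO-labelled libraries, against 9.68, 6.60 and 7.29 in flox/flox libraries, a ratio of means of 43.2. The deposited FPKM were not scaled to each library's own total: the divisor was 1.13 to 1.17 times the library's reads in the KO-labelled group and 0.855 to 0.885 times in the flox/flox group, which by arithmetic makes the FPKM ratio the smaller one. As a share of the reads of B-cell, plasma-cell and constant genes, Ighv reads were 3.6%, 4.58% and 4.26% in KO-labelled libraries, against 0.461%, 0.263% and 0.332% in flox/flox libraries, a narrower gap. In flox/flox libraries this denominator was mostly the plasma-cell list, with 587 to 754 CPM, against 15.7 to 20.5 CPM for heavy constant genes. It holds Xbp1 and Ssr4, secretory genes that islets also use. Per 100 heavy constant reads the groups ran the other way, with 9.98 to 11.4 Ighv reads in KO-labelled and 13.1 to 14.4 in flox/flox libraries. In bulk samples, fewer cells of a type and less RNA per cell cannot be told apart.

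The members seen also differed in number. At 1 read or more, 87, 82 and 87 of the 113 members were detected in the KO-labelled libraries, against 4, 5 and 4 in the flox/flox libraries. At 10 reads or more, the numbers were 53, 55 and 56 in KO-labelled and 2, 1 and 2 in flox/flox libraries. In the KO-labelled group 75 members had reads in all 3 libraries, 14 in 2 libraries, 3 in 1 library and 21 in none. In the flox/flox group none had reads in all 3 libraries, 3 had reads in 2 libraries and 7 in 1 library, so 10 members were seen at all. Of these 10, 9 also had reads in a KO-labelled library, and Ighv7-2 had 4 reads in flox/flox library 2 and none in KO-labelled libraries. No member had a read in all 6 libraries, and 20 had none in any. A member with no read in a library can have been present at up to 3 reads there, so these are limits of depth.

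The number of members seen depends on the number of Ighv reads, so libraries were also compared at a common 34 Ighv reads, the number in the shallowest library. At that depth a mean of 24.0, 23.3 and 23.8 members was expected in the KO-labelled libraries, by exact calculation from the read counts. The flox/flox libraries gave 3.85, 5 and 4 members. The means were 23.7 ± 0.357 in KO-labelled and 4.28 ± 0.626 in flox/flox libraries (SD, n = 3 each; exact two-sided permutation p = 0.10, the smallest possible). At equal read number the KO-labelled libraries held 5.54 times as many members as the flox/flox libraries.

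**Figure D1:**
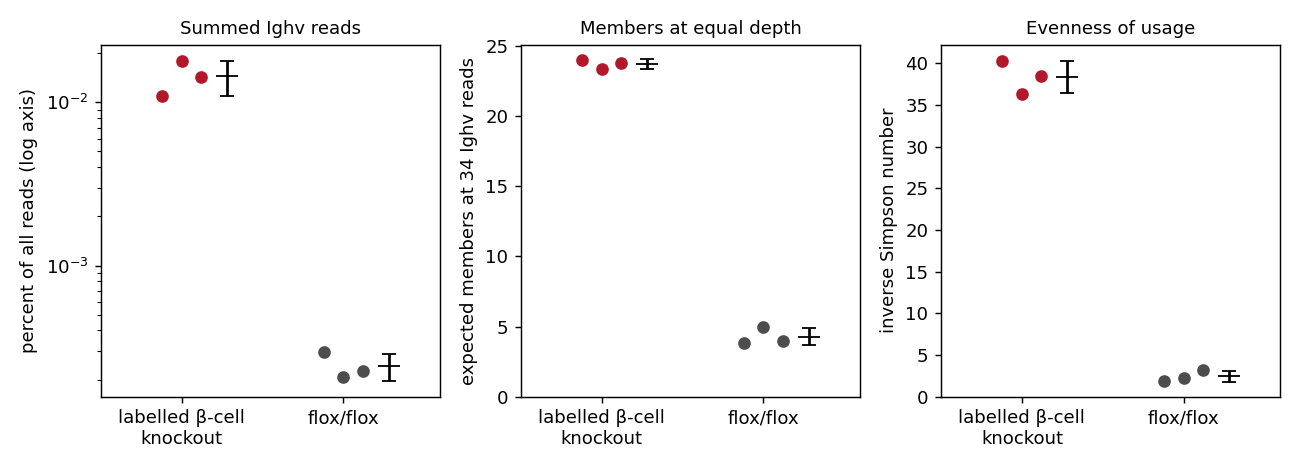
Ighv reads as a percentage of all reads (log axis), members expected at 34 Ighv reads, and inverse Simpson number of usage. Points are single libraries, KO-labelled left of flox/flox, with the mean and SD beside them (n = 3 each). In each panel all 3 KO-labelled libraries lie above all 3 flox/flox libraries, as with 36.3 to 40.2 against 1.85 to 3.17 for the inverse Simpson number.

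**Figure D2:**
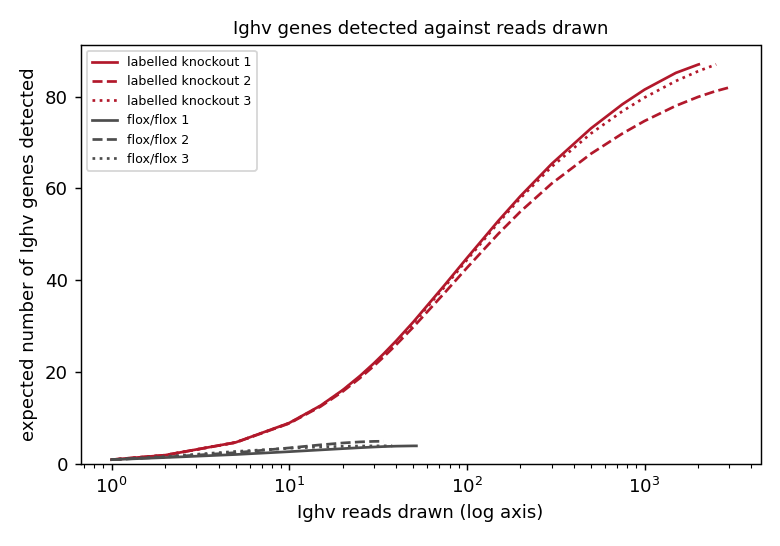
Expected number of Ighv members seen (vertical axis) against the number of Ighv reads drawn (horizontal axis, log scale) for each library, calculated exactly from the reads per member. At 34 reads the KO-labelled curves lie at 23.3 to 24.0 members and the flox/flox curves at 3.85 to 5.

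Usage was spread over many members in the KO-labelled libraries and rested on very few in the flox/flox libraries. The inverse Simpson number, the number of equally used members that would give the same chance that a pair of reads come from 1 member, was 40.2, 36.3 and 38.5 in KO-labelled libraries. It was 1.85, 2.29 and 3.17 in flox/flox libraries. The means were 38.4 ± 1.96 in KO-labelled and 2.44 ± 0.668 in flox/flox libraries (SD, n = 3 each; exact two-sided permutation p = 0.10, the smallest possible). The exponential of the Shannon entropy, which gives rare members more weight, was 52.7, 48.4 and 51.7 in KO-labelled libraries, against 2.34, 3.06 and 3.38 in flox/flox libraries. The 10 most used members held 38.9%, 43.1% and 40.1% of Ighv reads in the KO-labelled libraries. In the flox/flox libraries that share is 100% by arithmetic, since only 4 or 5 members had reads. The single most used member held 6.78%, 7.57% and 7.42% in KO-labelled libraries, and it was Ighv1-26 each time. In flox/flox libraries 1 and 3 it was again Ighv1-26, with 71.2% and 47.4%, and in flox/flox library 2 it was Ighv1-81, with 64.7%. These flox/flox percentages rest on 34 to 52 reads each. Usage in the KO-labelled libraries was broad but not flat: 27 members with at least 100 reads summed over the 3 libraries held 69.8% of the reads, while 38 members had under 10 reads and the median member had 37.

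Ighv1-26, of the large Ighv1 family, was the most used member. It had 137, 228 and 188 reads in KO-labelled libraries, against 37, 0 and 18 in flox/flox libraries. All KO-labelled values lay above all flox/flox values, and the flox/flox reads were in libraries 1 and 3 only. It averaged 25.9 ± 7.25 FPKM in KO-labelled and 3.47 ± 3.48 FPKM in flox/flox libraries (SD, n = 3 each), a ratio of 7.46. Its log2 difference, on the log2(FPKM + 0.5) scale used for all tests here, was 3.39 ± 0.93 (SE; limma, adjusted p = 0.0318 over all genes). This call was lost in 8 of the alternative settings, with adjusted p between 0.0518 and 0.331. The size also turned on single flox/flox libraries: the log2 difference was 4.19 without flox/flox library 1 and 2.24 without flox/flox library 2.

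Ighv1-81 was the other heavily used member with more than a few flox/flox reads. It had 102, 136 and 115 reads in KO-labelled libraries, against 0, 22 and 7 in flox/flox libraries. It was thus absent from flox/flox library 1, where Ighv1-26 was highest, and led in flox/flox library 2, where Ighv1-26 had no read. Its log2 difference was 3.36 ± 0.74 (SE; limma, adjusted p = 0.0156), with a ratio of mean FPKM of 8.72. Without KO-labelled library 3 the adjusted p was 0.0525. The log2 difference was 2.50 without flox/flox library 1 and 4.13 without flox/flox library 2.

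The other 10 of the 12 most used members had no read in any flox/flox library. Ighv1-64 had 94, 152 and 123 reads in KO-labelled libraries 1, 2 and 3. Its share of Ighv reads was 4.65%, 5.05% and 4.86%, the most even of the 61 members with at least 30 KO-labelled reads. Set against a floor of 3 reads over the flox/flox group, it was at least 89.9-fold higher in the KO-labelled group. Members with no flox/flox read entered the test through the KO-labelled group alone, so for these 10 the bound is given as a description and no p-value.

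Ighv1-18, the near copy of Ighv1-26, had 65, 126 and 94 reads in KO-labelled libraries and was at least 69.5-fold higher there. Ighv1-9, also of the Ighv1 family, had 59, 104 and 99 reads and was at least 63.8-fold higher. Ighv1-82, the member of this group with the highest coordinates, had 56, 60 and 61 reads and was at least 42.9-fold higher. The highest share of each of these 3 members was under 1.5 times its lowest in the KO-labelled libraries. Ighv1-54 did not: it had 23 reads in KO-labelled library 1, against 113 and 118 in libraries 2 and 3. It was at least 62.0-fold higher in the KO-labelled group.

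Members of other families stood beside the Ighv1 genes. Ighv5-17 had 89, 111 and 70 reads in KO-labelled libraries and was at least 65.7-fold higher there. Ighv8-8 had 46, 127 and 65 reads, with KO-labelled library 2 highest, and was at least 58.4-fold higher. Ighv3-6 had 57, 106 and 66 reads and was at least 55.9-fold higher. All 3 of these had their highest count in KO-labelled library 2, the library with the most Ighv reads. Ighv6-3 had 58, 95 and 57 reads and was at least 51.3-fold higher. Ighv9-3 departed from this order with 49, 36 and 76 reads, and was at least 38.8-fold higher.

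Below the most used members, the other 8 members with flox/flox reads were named after their values were seen. Ighv1-15 was the only one of them with 10 or more reads in a flox/flox library. It had 3, 57 and 38 reads in KO-labelled libraries, against 10, 0 and 10 in flox/flox libraries, so the groups overlapped (log2 difference 1.33 ± 0.98, SE; limma, adjusted p = 0.335). Ighv1-53 had 48, 64 and 52 reads in KO-labelled libraries and 3 reads in flox/flox library 3. Ighv1-76 had 38, 43 and 57 reads in KO-labelled libraries and 3 reads in flox/flox library 1. Ighv1-72, Ighv5-6, Ighv1-69, Ighv11-2 and Ighv7-2 each had 2 to 4 reads in 1 flox/flox library. By mean share of Ighv reads over the KO-labelled libraries, Ighv1-26 ranked first and Ighv1-81 3rd, while Ighv1-53 ranked 13, Ighv1-76 ranked 17 and Ighv1-15 ranked 32. The few members seen in flox/flox libraries were thus drawn from the high and middle parts of the KO-labelled order, apart from Ighv11-2 at rank 85 and Ighv7-2 with no KO-labelled read.

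Across all genes, 14497 rows with a mean of at least 1 FPKM were tested with limma on log2(FPKM + 0.5), and a call is an adjusted p below 0.05. Over these genes 16.9% were called higher and 17.2% lower in KO-labelled libraries, 34% in either direction. Of the 113 Ighv members 51 passed the filter on low values, and 49 of them were called higher and none lower. The 2 that were not called were Ighv1-15 and Ighv3-1, the latter with 0, 31 and 12 reads in KO-labelled libraries and none in flox/flox libraries. The count of 49 is given as a description, since 43 of the 51 tested members had no flox/flox read and passed the filter through the KO-labelled group alone. The 3 tested members with a flox/flox mean of at least 1 FPKM were Ighv1-26, Ighv1-81 and Ighv1-15, and the first 2 of these were called. Of the 51 tested members 49 had every KO-labelled value above every flox/flox value, as had 25.1% of all genes tested. Counted over all 113 members, tested or not, the number was 73, and the 25.1% covers tested genes only. A member with no flox/flox read needs only 1 read in each KO-labelled library to be counted, so these numbers are descriptions.

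**Figure D3:**
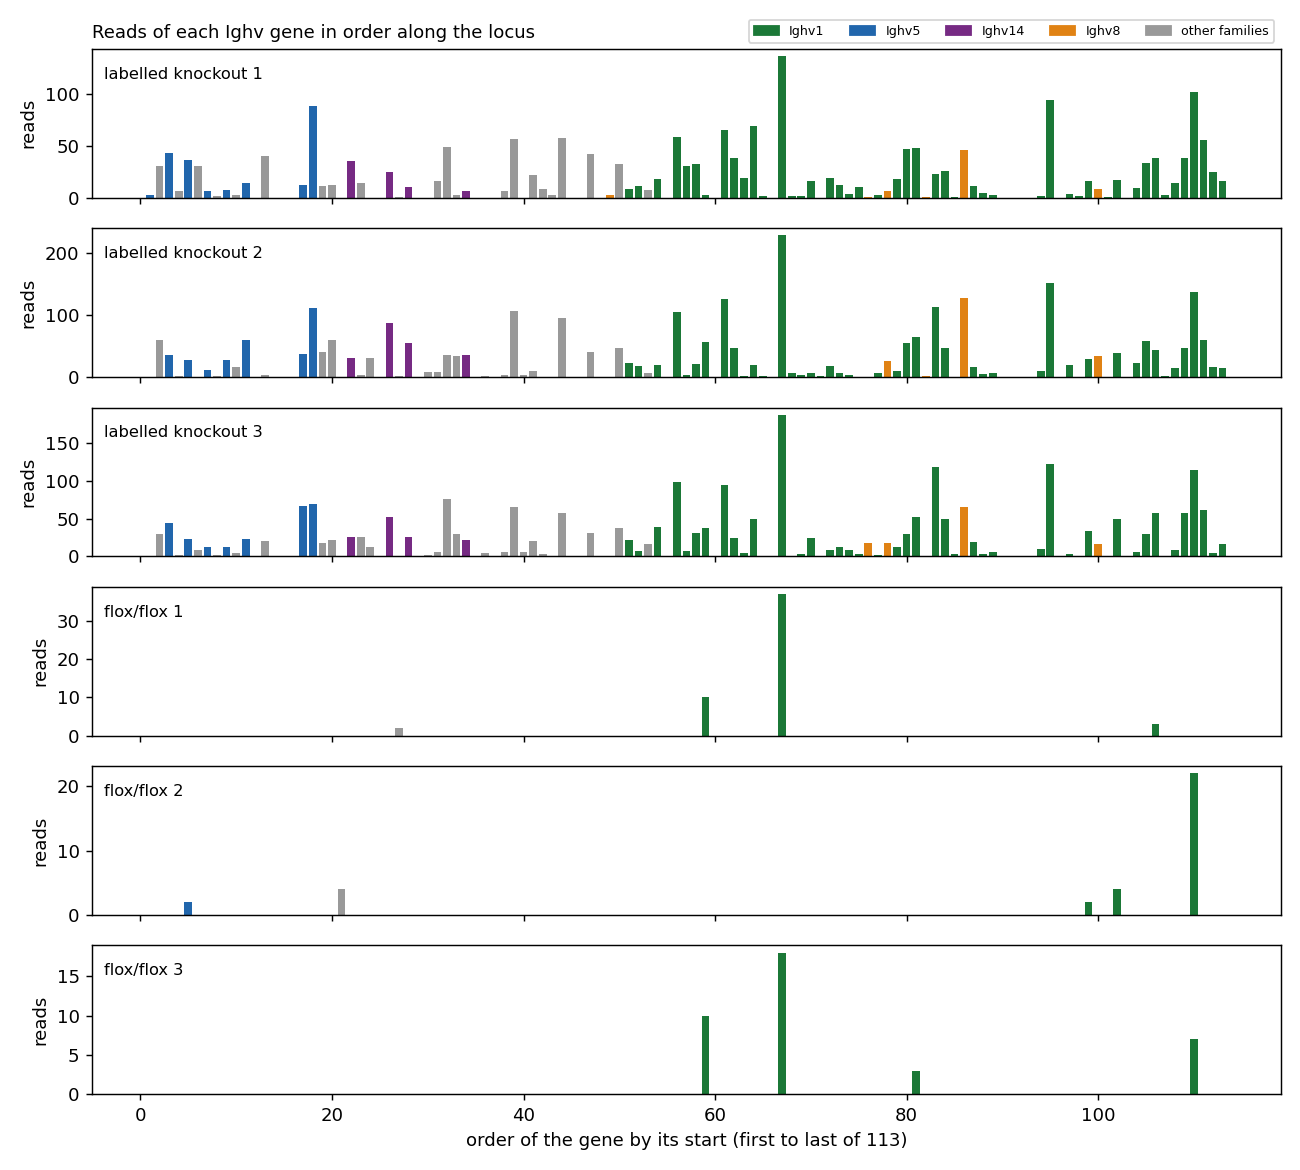
Reads of each member (vertical axis, own scale for each library) with members in chromosomal order along the horizontal axis, 1 panel for each library, KO-labelled above flox/flox, coloured by family. KO-labelled reads are spread along the whole order, with Ighv1-26 highest, while the flox/flox reads stand in 10 members.

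By family, the Ighv1 genes took the largest part in both groups. The 53 Ighv1 members are 46.9% of all members and held 60.1%, 56.2% and 60.6% of Ighv reads in KO-labelled libraries, against 96.2%, 82.4% and 100% in flox/flox libraries. The means were 59.0% ± 2.38 in KO-labelled and 92.8% ± 9.28 in flox/flox libraries (SD, n = 3 each; exact two-sided permutation p = 0.10, the smallest possible). The Ighv5 family, with 10 members close to the constant genes, held 10.4%, 10.3% and 9.95% in KO-labelled libraries, against 0%, 5.88% and 0% in flox/flox libraries. These 2 families varied little among the KO-labelled libraries in proportion to their share.

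Smaller families varied more in proportion to their share. Ighv14, with 4 members, held 3.76%, 6.84% and 4.90% in KO-labelled libraries 1, 2 and 3. Ighv8, with 9 members, held 3.22%, 6.24% and 4.62%. Ighv7, with 4 members, held 0.743%, 3.12% and 2.13%. In these 3 families KO-labelled library 2 was highest and library 1 lowest. Ighv2, with 9 members, was highest in library 1, with 6.14%, 4.02% and 3.36%. Ighv3, with 4.21%, 5.01% and 4.11%, and Ighv10, with 1.98%, 1.76% and 2.13%, varied less than these families. Over the KO-labelled group Ighv14 had the most reads per member, 101.5, against 83.8 for Ighv1. Of the 16 families, Ighv15 and Ighv16, with 1 member each, had no read in any library.

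**Figure D4:**
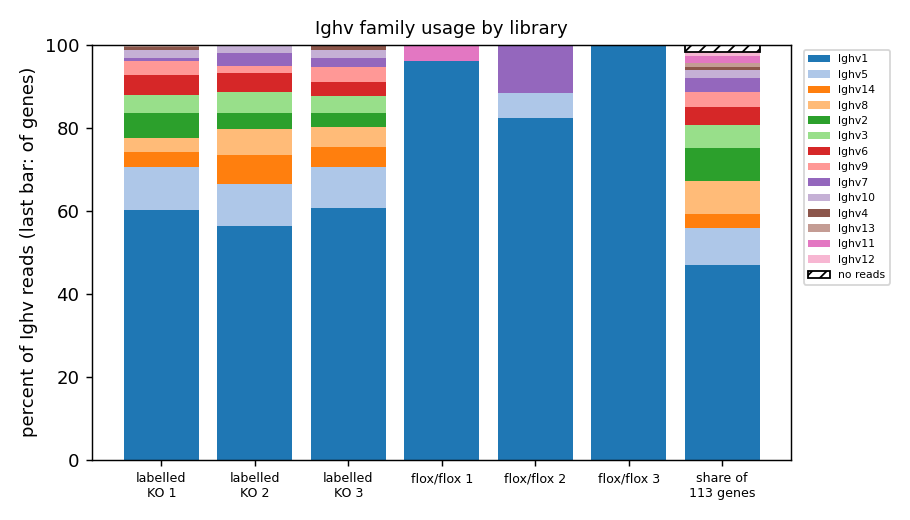
Share of Ighv reads (percent) by family, KO-labelled libraries left of flox/flox libraries, with each family's share of the 113 genes in the last bar. Ighv1 holds 56.2% to 60.6% of the bar in KO-labelled libraries and 82.4% to 100% in flox/flox libraries.

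Families and position are linked along the chromosome. Counted from the constant genes, the first Ighv1 member is number 51 in the order, and of the 63 members from there on 53 are Ighv1 and all but 2 of the rest are Ighv8. With the members cut into 3 parts of near-equal number by position, the part nearest Ighm held 25%, 27.2% and 25.2% of Ighv reads in the KO-labelled libraries. The middle part held 39.5%, 34% and 35.8%, and the part farthest from Ighm held 35.5%, 38.8% and 39.0%. The 3 KO-labelled libraries thus differed by at most a few percentage points in each part. In the flox/flox libraries the part nearest Ighm held 3.85%, 17.6% and 0%, the middle part 90.4%, 0% and 73.7%, and the farthest part 5.77%, 82.4% and 26.3%. These shares follow Ighv1-26, which lies in the middle part, and Ighv1-81, which lies in the farthest part.

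The KO-labelled libraries overlapped in usage, with differences in many members. The Morisita-Horn overlap, which is 1 for identical proportions and 0 for no shared member, was 0.891 between KO-labelled libraries 1 and 2, 0.912 between 1 and 3 and 0.948 between 2 and 3. Without the 3 members with the most reads it was 0.831 between libraries 1 and 2. Spearman's rho over the 113 members was 0.795, 0.875 and 0.905 for the same pairs, given as a description over members of single libraries. Of the 10 most used members of each library, 8, 7 and 8 were shared in these pairs. The flox/flox libraries overlapped in 1 pair and little or not at all in the others. Flox/flox libraries 1 and 2 had no member in common, libraries 1 and 3 shared 2 members with an overlap of 0.879, and libraries 2 and 3 shared 1 member with an overlap of 0.303. Between a KO-labelled and a flox/flox library the overlap was 0.132 to 0.281. With 34 to 52 Ighv reads in each, the flox/flox overlaps rest on few reads.

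As a check for a library deposited more than once, the chi-square statistic of the reads per member was divided by its degrees of freedom. This quotient, which is near 1 for libraries that differ by sampling only, was 8.91 for libraries 1 and 2, 5.43 for 1 and 3 and 4.78 for 2 and 3. All 3 pairs differed by more than read sampling. Among the 61 members with at least 30 KO-labelled reads, which hold 95.6% of the reads, the highest share was a median of 2.33 times the lowest. The ratio was under 1.5 for 12 members and at least 2 for 34. For 9 members it was 5 or more, or the lowest library had no read.

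The members that stood out in 1 library were found by the ratio of the highest to the second-highest share. Ighv1-11 had 31, 3 and 7 reads in KO-labelled libraries 1, 2 and 3, a ratio of 5.55. Ighv2-4 had 31, 0 and 9 reads, a ratio of 4.32. Its closest member, Ighv2-2, is 97.2% identical to it and had 31, 59 and 30 reads. How reads were split between Ighv2-4 and Ighv2-2 was not tested. Ighv9-2 had 16, 8 and 6 reads, a ratio of 2.98. Ighv2-9-1 had 40, 3 and 20 reads, a ratio of 2.51. All 4 members with these ratios were highest in KO-labelled library 1 and had no flox/flox read. Only Ighv2-9-1 passed the filter on low values, through the KO-labelled group alone, with a log2 difference of 2.34 ± 0.65 (SE; limma, adjusted p = 0.033), and that call was lost in 5 settings. Ighv1-22, named after its values were seen, had 69, 19 and 49 reads and was also highest in KO-labelled library 1.

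Library 3 had the middle share for 28 of the 61 members (45.9%), against 14 for library 1 (23.0%) and 19 for library 2 (31.1%). The highest share was in library 1 for 24 members, in library 2 for 21 and in library 3 for 16. The members thus had no single order of the 3 libraries. Over all genes tested, KO-labelled library 3 was the middle one for 51.4%, library 1 for 23.9% and library 2 for 24.7%. The 12 enterocyte genes summed to 425, 1673 and 955 CPM in KO-labelled libraries 1, 2 and 3, against 153 to 168 CPM in flox/flox libraries, and the total of Ighv reads had the same order among KO-labelled libraries, 2020, 3012 and 2532. Their part in the Ighv values was not tested.

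**Figure D5:**
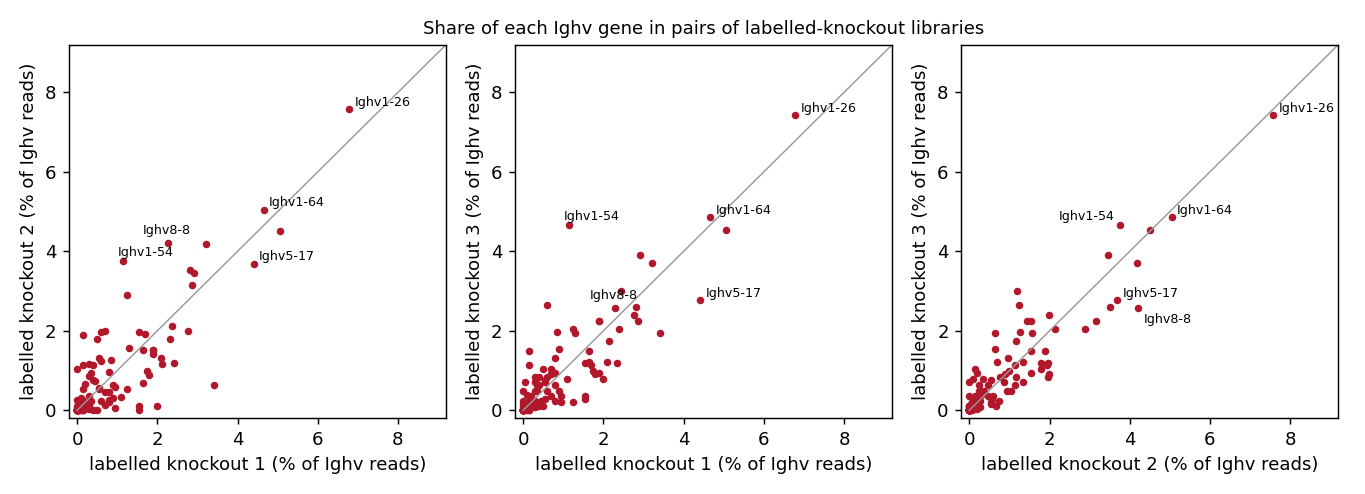
Share of Ighv reads (percent) of each member in one KO-labelled library against another, 1 panel for each pair; each point is a member and the line marks equal shares. Ighv1-26 is at the top of all 3 panels, and Ighv1-54 lies off the line in the pairs with library 1, where it had 1.14% against 3.75% and 4.66%.

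The near-identity of the genes limits what single-member values mean. Each 50-base window of a member's transcripts was looked up in the transcripts of all other genes. Over the 113 members a median of 21.9% of windows was shared with another gene, and the closest other member was a median of 91.7% identical. The 12 most used members shared a median of 14.9% of windows, with Ighv1-26 highest at 49.0%. The 20 members with no read shared a median of 16.6%, and the 61 members with at least 30 KO-labelled reads 21.2%. No member shared all its windows. More than 50% of windows were shared for 5 of the 20 members with no read and for 7 of the 61. Ighv1-62-2 shared 91.8% of its windows and had no read, while Ighv1-72 shared 92.5% and had 105 KO-labelled reads. The effect of shared sequence on detection was not tested. How reads that match several genes were counted is not given in the sources used here, so reads of Ighv1-26, Ighv1-18 and Ighv1-22 may be split between them in part. The 2 members that overlap another annotated gene, Ighv1-5 and Ighv1-62-1, overlap genes with no read in any library.

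The partner genes of the Ighv segments moved with them. Heavy constant genes held 20238, 26581 and 22137 reads in KO-labelled libraries, against 363, 259 and 264 in flox/flox libraries. There were 9.98, 11.3 and 11.4 Ighv reads per 100 heavy constant reads in KO-labelled libraries, against 14.3, 13.1 and 14.4 in flox/flox libraries. The means were 10.9 ± 0.812 in KO-labelled and 13.9 ± 0.712 in flox/flox libraries (SD, n = 3 each; exact two-sided permutation p = 0.10, the smallest possible), so this ratio was slightly lower in the KO-labelled group while the reads themselves were many times higher. The 70 Ighv pseudogene rows, which cannot give a heavy chain, held 7, 8 and 13 reads in KO-labelled libraries and none in flox/flox libraries.

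Within the constant genes the classes differed between libraries. Igha, the IgA heavy chain of mucosal plasma cells, had 12226, 22693 and 16159 reads in KO-labelled libraries, against 184, 11 and 97 in flox/flox libraries. Ighm had 2354, 1970 and 2049 reads in KO-labelled libraries, against 132, 98 and 100 in flox/flox libraries. Ighg2b, an IgG heavy chain, had 2126, 702 and 1415 reads in KO-labelled libraries, against 15, 145 and 63 in flox/flox libraries. Ighg2c, another IgG heavy chain, had 1879, 312 and 1151 reads in KO-labelled libraries, against 1, 5 and 3 in flox/flox libraries. Among the KO-labelled libraries, Igha was highest in library 2, where Ighg2b was lowest. Among the flox/flox libraries, Igha ran in the order 184, 11 and 97 reads beside 37, 0 and 18 for Ighv1-26, and Ighg2b ran in the order 15, 145 and 63 beside 0, 22 and 7 for Ighv1-81. These pairs of genes were set side by side after their values were seen. They rest on 3 libraries, and which constant gene a given Ighv segment was joined to cannot be read from a gene table.

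The light chain showed the same contrast. The 100 Igkv rows, the variable genes of the κ light chain, held 3073, 4696 and 4040 reads in KO-labelled libraries, against 66, 24 and 38 in flox/flox libraries. Their inverse Simpson number was 32.1, 30.3 and 34.5 in KO-labelled libraries, against 2.45, 1.78 and 3.76 in flox/flox libraries. Of the 100 rows, 82, 80 and 81 were detected in KO-labelled libraries, against 5, 5 and 6 in flox/flox libraries. The overlap of Igkv usage between KO-labelled libraries was 0.883, 0.954 and 0.965. Igkc, the κ constant gene, had 8836, 13077 and 10977 reads in KO-labelled libraries, against 119, 57 and 90 in flox/flox libraries. Iglc1, a λ constant gene, had 304, 326 and 291 reads in KO-labelled libraries, against 8, 0 and 5 in flox/flox libraries.

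Marker lists of the cells that make or accompany antibody are given beside these values, and their part in the Ighv difference was not tested. The 12 B-cell genes summed to between 328 and 485 CPM in KO-labelled libraries, against 15.4 to 22.6 CPM in flox/flox libraries, and of 11 tested 10 were called higher, none lower. Of these tested genes all but Cd79a and Ebf1 had a flox/flox mean below 1 FPKM and passed the filter through the KO-labelled group. Over all genes 16.9% were called higher, and the list counts here are descriptions. Cd79a and Cd79b, the signalling chains of the B-cell receptor, had 1172, 626 and 889 reads and 838, 504 and 736 reads in KO-labelled libraries, against 119, 57 and 96 reads and 1, 3 and 3 reads in flox/flox libraries. Both were lowest among the KO-labelled libraries in library 2, the library with the most Ighv reads. The 12 plasma-cell genes summed to between 945 and 1191 CPM in KO-labelled libraries, against 587 to 754 CPM in flox/flox libraries, with 6 called higher and 2 lower of 11 in the deposited scaling. That list includes secretory genes that islets also use. Jchain, Irf4, Pou2af1 and Tnfrsf13b, of the 6 called higher, had a flox/flox mean below 1 FPKM. The others called higher were Mzb1 and Sdc1. Mzb1 averaged 18.7 ± 0.77 FPKM in KO-labelled and 1.63 ± 0.67 FPKM in flox/flox libraries (log2 difference 3.22 ± 0.20, SE; limma, adjusted p = 0.000179). Sdc1 averaged 2.65 ± 0.82 FPKM in KO-labelled and 1.19 ± 0.43 FPKM in flox/flox libraries (log2 difference 0.89 ± 0.26, SE; limma, adjusted p = 0.0378). Of the 2 called lower, Prdm1 averaged 3.49 ± 0.34 FPKM in KO-labelled and 6.53 ± 0.39 FPKM in flox/flox libraries (SD, n = 3 each). Its log2 difference was -0.82 ± 0.09 (SE, limma, adjusted p = 0.00123). It had 390, 423 and 375 reads in KO-labelled libraries, against 537, 505 and 578 in flox/flox libraries. On the deposited scale Ssr4, of the translocon, averaged 78.3 ± 6.48 FPKM in KO-labelled and 101 ± 10.4 FPKM in flox/flox libraries (SD, n = 3 each), and was called lower (log2 difference -0.37 ± 0.10, SE; limma, adjusted p = 0.0308). Xbp1, a factor of the secretory programme, averaged 78.2 ± 4.19 FPKM in KO-labelled and 93.0 ± 6.44 FPKM in flox/flox libraries (log2 difference -0.25 ± 0.08, SE; limma, adjusted p = 0.0511). In unscaled reads Ssr4 overlapped between the groups, with 4381 to 5500 in KO-labelled libraries, against 4403 to 5063 in flox/flox libraries, and Xbp1 ran the other way, with 4971 to 5335 in KO-labelled libraries, against 4335 to 4707 in flox/flox libraries. Tnfrsf17, the plasma-cell receptor BCMA, had 6, 9 and 7 reads in KO-labelled libraries and none in flox/flox libraries. Jchain, which joins IgA and IgM into polymers, had 3238, 7110 and 5001 reads in KO-labelled libraries, against 25, 20 and 30 in flox/flox libraries. Jchain was highest in KO-labelled library 2, as were Igha and the Ighv reads.

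Other lists moved as well. The 12 T-cell genes summed to between 81.0 and 145.9 CPM in KO-labelled libraries, against 4.70 to 6.44 CPM in flox/flox libraries, with all 9 tested called higher. All 9 had a flox/flox mean below 1 FPKM and passed the filter through the KO-labelled group, so their count is a description. Trac and Trbc2, constant genes of the T-cell receptor, had 182, 232 and 204 reads and 176, 373 and 207 reads in KO-labelled libraries, against 17, 8 and 12 reads and 6, 4 and 6 reads in flox/flox libraries. Of the 10 enterocyte genes tested, 9 were called higher, and Alpi, Cdx1 and Cdx2 had no flox/flox read. Only Anpep, Vil1 and Slc5a1 of those tested had a flox/flox mean of at least 1 FPKM, and Slc5a1 was not called (limma, adjusted p = 0.0793). Rbp2, an intestinal retinol-binding protein, had 195, 2791 and 1483 reads in KO-labelled libraries, against 4, 1 and 1 in flox/flox libraries. Rag1, a subunit of the RAG recombinase, and Igll1, a surrogate light chain of B-cell precursors, had no read in any library.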

How the data were processed

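RNA from islets was sequenced in 6 libraries, 3 for each group. The tools named per the submitters' processing notes are DESeq2 1.16.1, HISAT2 2.0.5 and featureCounts 1.5.0-p3, with GRCm38 patch 6. The authors deposited gene FPKM, and the sources used here do not give strand or multi-mapping settings. FPKM times gene length were whole multiples of 1 read in every library (tolerance 0.1), which gave reads per gene. The deposited scaling followed a median-of-ratios factor, not library totals. All genes with a mean of at least 1 FPKM were tested with limma 3.58.1 (R 4.3.3) on log2(FPKM + 0.5), with Benjamini-Hochberg adjustment, which was tested on simulated data. The design also planned 2 count models, not run because the deposited unit is FPKM, and limma voom on recovered reads was added after the data were seen. Shares, detection, evenness and overlap used reads. Same-numbered libraries were not taken as pairs.

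The Ighv members, marker lists and tests were chosen with earlier results of these data known. The members named were the 12 with the largest mean share over KO-labelled libraries, the 5 called with the largest change, and 4 with at least 30 KO-labelled reads and the largest ratio of highest to second-highest share. Of the other genes, the 3 with the highest mean FPKM in each marker list and Ighm, Igha and Igkc were to be named, and any further gene was chosen after its values were seen. Some genes that the rule names are not reported here. Every column of the table belonged to 1 of the 6 libraries, so 0 were left out.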

Additional observations from a re-analysis of the deposited data

How the results depend on the processing

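The members called numbered 49, none lower in any setting. With a filter of 5 FPKM 9 were called (9 tested), and without KO-labelled libraries 2 and 3 together 24 were. Leaving out 1 library gave 36 to 48, with 38 to 55 tested. With no filter on low values 64 of 93 were called, beside 4271 of 32456 over all genes. In the main fit 43 of the 51 members tested had no flox/flox read, so these counts are descriptions. Over all genes 4935 calls became 3090 with the 5 FPKM filter, 1132 without KO-labelled libraries 2 and 3, and 2713 to 4213 with 1 library left out, lowest without KO-labelled library 3. Scaling to each library's own reads gave 8352 (7643 higher, 709 lower, median log2 difference 0.36), and limma voom on reads gave 8464 (7761 higher, 703 lower, median 0.41), against 2446 higher and 2489 lower in the deposited scaling. The median over the Ighv members tested was 3.30 and 5.70 in these fits.

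Ighv1-26 was not called with a pseudocount of 0.1 (adjusted p = 0.0681), with no filter (0.0747), with the replicate block (0.0518), without KO-labelled library 1, 2 or 3 (0.0599, 0.0836 and 0.0895), without KO-labelled libraries 2 and 3 together (0.331) or without flox/flox library 3 (0.0593). Ighv1-81 was not called without KO-labelled library 3 (0.0525) or without libraries 2 and 3 (0.232). Ighv2-9-1 had no flox/flox read and entered the test through the KO-labelled group alone, so its call is a description. That call was lost with no filter, without KO-labelled library 3 and without flox/flox library 1, 2 or 3. No result reversed.

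Mean overlap between KO-labelled libraries was 0.917. Spearman's rho gave 0.858, leaving out the 3 members with the most reads gave 0.870, and leaving out 1 library gave 0.891 to 0.948. Share, detection and evenness kept their direction in each alternative run, although with reads of B-cell, plasma-cell and constant genes as the denominator the share was 3.6% to 4.58% in KO-labelled and 0.263% to 0.461% in flox/flox libraries. That denominator includes secretory genes of islets, and the ratio to heavy constant reads alone ran the other way.

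Deviations of same-numbered libraries correlated at 0.0811, 0.0751 and 0.0423, and those of differently numbered libraries at -0.0679 to -0.0106. Each library thus correlated best with its own number, weakly. With 3 libraries a group these values cannot settle whether the numbers pair the libraries. With the replicate block 4659 genes and 48 members were called. Flox/flox usage rests on 34 to 52 reads a library. The 2 planned count models were not run.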
